A study of Mus musculus with 13 samples.

Results

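Gene expression was compared between aged and young aorta of male C57BL/6 mice whose mineralocorticoid receptor (MR), the nuclear receptor for aldosterone, was intact. The comparison used every array labelled wildtype, which the design text describes as having the receptor, 7 of the 13 arrays in the series: 4 from mice aged 12 months and 3 from young mice of 3 to 4 months. The other 6 arrays, 3 young and 3 aged, came from mice of the same strain and sex that lack the receptor in smooth muscle cells, and they are set beside the result only where stated. The sources used here give neither the Cre driver of that deletion nor whether MR-intact mice carried a floxed receptor gene. The question behind the comparison is which aortic transcripts differ between these ages. Sample titles carry the letter A on every aged and B on every young array, so whatever the letter marks cannot be told apart from age. Arrays are called replicates 1 to 4 (aged) and 1 to 3 (young), numbers that only name an array, and values are given in that order. Whether each array stands for its own animal is not stated, and the p-values reflect only the variation among these samples, which may be technical.

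The wall of the aorta consists of smooth muscle cells layered with elastic fibres and fibrillar collagen, an endothelial lining, and an outer coat of fibroblasts, nerves, immune cells and fat. Collagen is made as procollagen chains that are folded in the cell, trimmed by proteases outside it and then cross-linked by lysyl oxidases into fibrils that persist for long periods. Arterial ageing is known for stiffening, changes of the matrix, mineral deposits and a gain of immune cells.

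Each array gave a log2 expression value for 21225 genes, and the array medians lay between 5.85 and 5.90. Smooth muscle markers averaged 10.21 to 10.59 over the 7 arrays, and markers of brown fat averaged 10.25 to 10.80. Striated muscle markers set the young arrays apart from each other: the 27 skeletal and cardiac markers averaged 8.01, 7.64 and 5.65 on the young arrays and 5.55, 5.49, 5.50 and 5.87 on the aged arrays. Young replicates 1 and 2 were thus high, and young replicate 3 lay within the aged range. The first principal component of the 7 arrays (36.2% of the variance) placed young replicates 1 and 2 at 22.9 and 19.4, young replicate 3 at 3.5 and the aged arrays at -17.0 to -2.7. Nr3c2, which encodes the receptor, read 6.68, 6.62 and 6.69 on young and 7.12, 6.86, 6.80 and 7.24 on aged MR-intact arrays, all above the 6 knockout arrays (6.09 to 6.58). Its change with age was 0.35 (limma adjusted p = 0.449).

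With age, 50 genes (0.236% of 21225) passed a limma test over all 13 arrays at a Benjamini-Hochberg adjusted p under 0.05, called from here on. Of these, 38 (0.179%) were higher and 12 (0.0565%) lower in the 4 aged than in the 3 young arrays. Among those that fell were the collagen chains Col1a1, Col1a2 and Col3a1, the procollagen protease Adamts2 and the cross-linking enzyme Lox. Among those that rose were the bone matrix gene Ibsp, the chemokine Ccl8, the growth factor binding protein Igfbp2 and the ion channel subunits Dpp10 and Cacna2d3. The median change was 0.82 among the higher and -0.70 among the lower genes, and 0.006 over all genes. None of the 50 overlapped between the groups, nor did 2303 of all genes (10.9%), of which 1285 were higher and 1018 lower with age. By the Gene Ontology terms deposited with the values, 8 of the 12 lower and 14 of 37 annotated higher genes belonged to the extracellular region, a term of 6.75% of annotated genes. The proteinaceous extracellular matrix term, held by 1.19% of annotated genes, took in 7 of the 12 lower and 3 of the 37 higher genes. Of the other terms counted, plasma membrane (9.9% of annotated genes) took in 5 higher and 2 lower genes, and nucleus (19.3%) 5 and 1. Synapse (1.34%) took in 1 and 0, and mitochondrion (6.1%) 0 and 0. In bulk tissue, fewer cells of a type and less RNA per cell cannot be told apart.

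The number of calls depended on single arrays. It was 29, 73, 32 and 33 without aged replicates 1 to 4, and 28, 14 and 104 without young replicates 1 to 3. Without young replicate 3 the balance turned to 34 higher and 70 lower genes. Each of the 50 genes kept its sign in all of these fits. Leaving out an array could not turn a sign, since none of the 50 overlapped between the groups. Of the 49 genes named below, 12 were called whichever array was left out: Ube2ql1, Sema3e, Ibsp, Capn13, Apod, Serinc2, Slc6a17, Serpini1, Arhgef26, Adamts2, Col3a1 and Col1a1. The others lost the call at least once, 36 of them without young replicate 2, 24 without young replicate 1 and 16 without young replicate 3. Without aged replicates 1 to 4 the numbers were 21, 7, 18 and 20. The call held in 1 of the 7 fits for Cacna2d3, Cd209d, Crispld1, Neto1, Rspo3, Smpdl3b, Kcnip3, Slc4a10, Bace2 and Lrg1. It held in 2 for Vwc2, Kif1a, Pisd-ps1, Piezo2, Rgs7bp, Fam217a, Pik3ip1, Lox and Cish, and in 0 for Pdgfc. With the muscle marker mean of each array as a covariate, 6 genes were called, 5 of them among the 50: Col1a1 (-1.14, limma adjusted p = 0.032), Col3a1 (-0.83, limma adjusted p = 0.042), Apod (1.29, limma adjusted p = 0.0116), Capn13 (0.98, limma adjusted p = 0.042) and Serpini1 (0.88, limma adjusted p = 0.0457). The median size of change over the 50 genes was 0.78 without and 0.84 with that covariate.

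**Figure D1:**
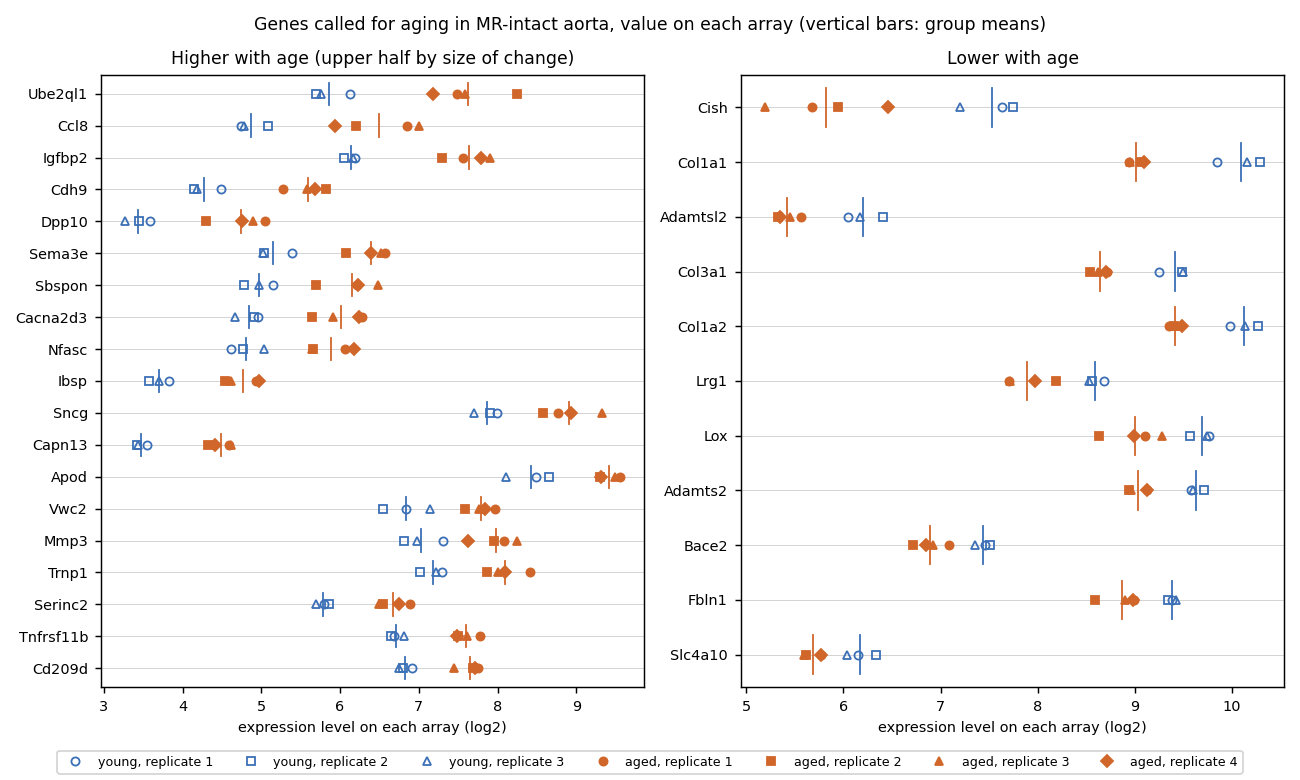
Log2 expression level on each of the 7 MR-intact arrays for the 19 called higher genes with the largest changes (left) and the 11 named lower genes (right). Open blue symbols are young and filled orange symbols aged arrays, with 1 symbol shape per replicate, and vertical bars are group means. In every row the young and the aged symbols are apart.

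Of the 11 fibrillar procollagen chain genes, 3 fell, all of them chains of the most abundant arterial collagens, and 0 rose. Over all genes, 0.0565% were called lower and 0.179% higher. This and the later lists were chosen with earlier results of these data known, so their counts are no test of a list. Col1a1 (Entrez 12842), the alpha 1 chain of type I collagen, read 9.84, 10.28 and 10.15 on the young arrays and 8.94, 9.07, 8.95 and 9.10 on the aged arrays. The 4 aged arrays lay close together and below all young arrays, and the change was -1.08 (SE 0.10, limma adjusted p = 0.000787). Col1a2 (Entrez 12843), which supplies the other chain of the same trimer, read 9.98, 10.26 and 10.14 on young and 9.35, 9.41, 9.42 and 9.49 on aged arrays. The groups were again apart, with a change of -0.71 (SE 0.09, limma adjusted p = 0.00679), and among the fits without 1 array the call was lost only without young replicate 2. Col3a1 (Entrez 12825), the chain of type III collagen, read 9.24, 9.49 and 9.50 on young and 8.71, 8.53, 8.62 and 8.70 on aged arrays. No aged array reached the lowest young one, and the change was -0.77 (SE 0.08, limma adjusted p = 0.00238). The type V chains, which start type I fibrils, were not called: Col5a1 changed by -0.20, Col5a2 by -0.26 and Col5a3 by -0.31 (limma adjusted p = 0.449, 0.168 and 0.398). Cartilage chains stayed near 0, with Col2a1 at -0.03 and Col11a2 at 0.01. The median of the list was -0.20 (-0.24 to -0.14 leaving out 1 array), against 0.006 over all genes.

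Trimming and cross-linking each had 1 called member. Adamts2 (Entrez 216725), the protease that removes the amino-terminal propeptide of procollagen, read 9.57, 9.71 and 9.60 on young and 9.12, 8.94, 8.96 and 9.13 on aged arrays. Its groups did not overlap, and the change was -0.59 (SE 0.07, limma adjusted p = 0.00488). Lox (Entrez 16948), the lysyl oxidase that cross-links collagen and elastin, read 9.76, 9.57 and 9.74 on young and 9.11, 8.63, 9.28 and 8.99 on aged arrays. Aged replicate 2 was the lowest and aged replicate 3 the nearest to the young arrays, with a change of -0.69 (SE 0.12, limma adjusted p = 0.042). This call held in 2 of the 7 fits without 1 array. The other lysyl oxidases were not called, and Loxl1 and Loxl2 changed by -0.19 and -0.21. The median of the 9 cross-linking genes was -0.02 (-0.10 to -0.03 leaving out 1 array), against 0.006 over all genes. Of 30 genes for folding and trimming procollagen, 1 was called (Adamts2), with a list median of -0.11. In that list, 9 genes were lower and 1 higher without overlap (10.9% of all genes did not overlap). Among its uncalled members, the collagen chaperone Serpinh1 read 8.91, 8.99 and 9.01 on young and 8.71, 8.70, 8.73 and 8.63 on aged arrays, a change of -0.28 (limma adjusted p = 0.148). The lysyl hydroxylase Plod1 changed by -0.34, and the propeptide protease Tll1 by -0.56. The 27 other collagen genes had a median of -0.06 and 0 called, and the type VI chains Col6a1, Col6a2 and Col6a3, which form beaded filaments, changed by -0.40, -0.31 and -0.23 (limma adjusted p = 0.313, 0.444 and 0.514).

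The promoters of 3 lower genes of collagen production and of Ibsp, the higher bone matrix gene, are shown to compare genes that moved together with one that moved the opposite way. No promoter sequence was available for Col1a1 or Lox. The genes shown do not stand for all lower or all higher genes. Each window runs from 250 bases before to 50 bases after the annotated start on GRCm38.p6, 5′ to 3′ on the gene's strand. Capitals mark the CCAAT box, the TATA motif TATAAA, the GC box motif GGGCGG and the receptor element motif AGAACA, each on either strand. The windows are chr6:4505368-4505667 (plus strand), chr1:45311288-45311587 (plus strand), chr11:50601835-50602134 (plus strand) and chr5:104299037-104299336 (plus strand).
Col1a2: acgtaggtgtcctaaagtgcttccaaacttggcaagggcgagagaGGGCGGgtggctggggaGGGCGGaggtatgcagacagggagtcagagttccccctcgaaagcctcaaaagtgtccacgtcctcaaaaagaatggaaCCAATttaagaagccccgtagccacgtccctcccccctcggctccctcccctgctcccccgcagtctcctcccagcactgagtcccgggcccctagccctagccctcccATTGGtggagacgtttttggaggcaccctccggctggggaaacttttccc
Col3a1: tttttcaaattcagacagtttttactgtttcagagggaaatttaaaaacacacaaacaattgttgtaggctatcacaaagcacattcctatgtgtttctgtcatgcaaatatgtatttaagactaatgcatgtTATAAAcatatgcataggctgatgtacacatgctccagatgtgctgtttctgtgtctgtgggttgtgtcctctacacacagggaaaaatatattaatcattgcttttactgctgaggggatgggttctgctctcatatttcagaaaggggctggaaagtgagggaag
Adamts2: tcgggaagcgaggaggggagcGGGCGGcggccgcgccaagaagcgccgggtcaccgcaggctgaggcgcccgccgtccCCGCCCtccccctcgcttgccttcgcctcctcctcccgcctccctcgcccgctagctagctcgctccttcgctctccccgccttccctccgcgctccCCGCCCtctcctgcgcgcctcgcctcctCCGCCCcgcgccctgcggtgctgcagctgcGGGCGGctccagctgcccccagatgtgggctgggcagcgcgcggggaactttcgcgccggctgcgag
Ibsp: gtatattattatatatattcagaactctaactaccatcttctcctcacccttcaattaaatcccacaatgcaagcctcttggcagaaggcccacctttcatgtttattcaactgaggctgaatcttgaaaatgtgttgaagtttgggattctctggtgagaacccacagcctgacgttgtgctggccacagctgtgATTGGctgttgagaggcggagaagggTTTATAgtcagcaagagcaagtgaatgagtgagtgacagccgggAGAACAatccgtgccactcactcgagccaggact

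The Col1a2 window held CCAAT and GGGCGG, each at 2 places, the Col3a1 window 1 TATAAA, and the Adamts2 window GGGCGG at 5 places. In the Ibsp window a reversed CCAAT began at position -54 and a reversed TATAAA at -28 counted from 0 at the start, with AGAACA at position 16. Over all measured genes with a window (15890), 41.9% held CCAAT, 13.9% TATAAA, 52.7% GGGCGG and 18% AGAACA in at least 1 window. Among named genes with a window, CCAAT was held by 12 of 30 higher and 4 of 8 lower genes, and TATAAA by 3 and 4. GGGCGG was held by 15 of the higher and 5 of the lower genes, and AGAACA by 2 and 1. These counts describe letters in a window and not bound sites.

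In the elastic fibre list, 2 of 24 genes fell and 0 rose, against 0.0565% and 0.179% of all genes. Adamtsl2 (Entrez 77794), a secreted protein that binds fibrillin microfibrils, read 6.05, 6.40 and 6.17 on young and 5.57, 5.33, 5.45 and 5.35 on aged arrays. It was lower on every aged array (-0.78, SE 0.11, limma adjusted p = 0.0107). Fbln1 (Entrez 14114), a fibulin found along elastic fibres, read 9.38, 9.34 and 9.42 on young and 8.99, 8.59, 8.90 and 8.98 on aged arrays. The young arrays lay close together and no aged array reached them, with a change of -0.52 (SE 0.09, limma adjusted p = 0.0321). Its call held in 3 of the 7 fits without 1 array. Elastin itself (Eln) was not called: it read 10.47, 10.67 and 10.90 on young and 10.19, 9.53, 10.16 and 10.13 on aged arrays (-0.68, limma adjusted p = 0.291). Efemp1 (fibulin 3) went the other way, at 9.35, 8.97 and 8.86 on young and 10.01, 9.63, 9.76 and 9.85 on aged arrays (0.75, limma adjusted p = 0.12). Neither gene overlapped between the groups. Of the 24 genes, 10 were lower and 2 higher without overlap (10.9% of all genes did not overlap), and the median was -0.15 (-0.19 to -0.06 leaving out 1 array). Small leucine-rich proteoglycans (16 genes) and matricellular proteins (23 genes) had 0 called, with medians of 0.08 and -0.06. Among them were Podn at -0.46, Epyc at 0.37, Thbs4 at -0.60 and Thbs1 at -0.45.

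**Figure D2:**
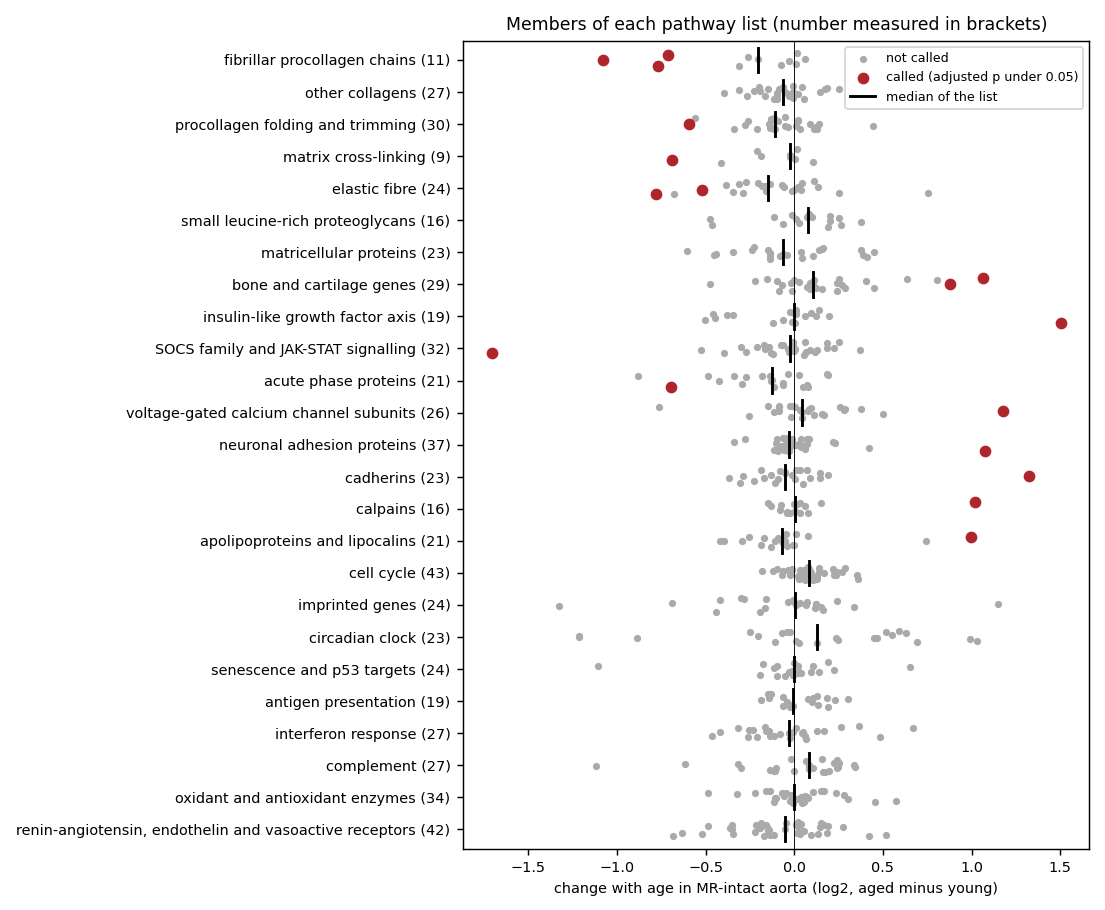
Change with age in MR-intact aorta (log2, aged minus young) of each measured member of the 25 pathway lists, with the number of measured members in brackets. Red points are called genes, grey points are not called, and black bars are list medians. The called genes of the first 5 lists, which hold collagen and elastic fibre genes, lie to the left of 0.

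The genes of secreted proteins that rose lay outside the collagen lists. Mmp3 (Entrez 17392), the protease stromelysin, read 7.30, 6.82 and 6.98 on young and 8.08, 7.96, 8.25 and 7.62 on aged arrays. The nearest arrays, young replicate 1 and aged replicate 4, were 7.30 and 7.62, and the change was 0.94 (SE 0.15, limma adjusted p = 0.0245). Its call held in 3 of the 7 fits without 1 array. Sbspon (Entrez 226866), a secreted protein with somatomedin B and thrombospondin domains, read 5.14, 4.78 and 4.97 on young and 6.22, 5.69, 6.48 and 6.22 on aged arrays. All aged arrays were higher (1.19, SE 0.16, limma adjusted p = 0.00685). Vwc2 (Entrez 319922), a secreted antagonist of bone morphogenetic proteins, read 6.83, 6.54 and 7.15 on young and 7.96, 7.59, 7.77 and 7.84 on aged arrays. It rose by 0.95 (SE 0.15, limma adjusted p = 0.0199), with the call held in 2 of the 7 fits without 1 array. Crispld1, a cysteine-rich secretory protein, rose by 0.77, and Rspo3, a secreted amplifier of Wnt signalling, by 0.66 (limma adjusted p = 0.0282 and 0.0496). Pdgfc, a platelet-derived growth factor, rose by 0.48 (limma adjusted p = 0.0387), a call lost in each of the 7 fits.

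Of 29 bone and cartilage genes 2 rose and 0 fell, against 0.179% and 0.0565% of all genes. Ibsp (Entrez 15891), bone sialoprotein, an acidic protein that binds mineral, read 3.82, 3.57 and 3.70 on young and 4.93, 4.53, 4.62 and 4.97 on aged arrays. All aged arrays were higher (1.07, SE 0.12, limma adjusted p = 0.00328). Its young mean lay under the lower quartile of the arrays (3.89 to 4.06), as did that of Capn13, Dpp10 and Neto1, so how far these 4 genes stand above background in young aorta is not known. Tnfrsf11b (Entrez 18383), osteoprotegerin, the decoy receptor that blocks osteoclast formation, read 6.69, 6.65 and 6.81 on young and 7.78, 7.50, 7.62 and 7.48 on aged arrays. Its groups were apart (0.88, SE 0.12, limma adjusted p = 0.00685). Among the uncalled members, the cartilage proteoglycan gene Acan read 5.87, 5.62 and 5.75 on young and 6.78, 6.26, 6.57 and 6.59 on aged arrays (0.80, limma adjusted p = 0.204). Hapln1, which links aggrecan to hyaluronan, changed by 0.64 (limma adjusted p = 0.27). In both the groups were apart. The bone transcription factors Runx2 and Sp7 changed by 0.10 and -0.09, the chondrocyte factor Sox9 by 0.09, and the mineralization inhibitor Mgp by 0.16. The median of the list was 0.10 (0.09 to 0.13 leaving out 1 array), with 7 higher and 0 lower members without overlap, against 10.9% of all genes in either direction.

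Among immune genes, 2 that act on or mark myeloid cells rose. Ccl8 (Entrez 20307), a chemokine that attracts monocytes, read 4.74, 5.09 and 4.78 on young and 6.85, 6.20, 7.0 and 5.93 on aged arrays. Aged replicates 1 and 3 were the highest, and the change was 1.63 (SE 0.22, limma adjusted p = 0.00753). Cd209d (Entrez 170779), a C-type lectin of the DC-SIGN family, read 6.92, 6.80 and 6.75 on young and 7.75, 7.68, 7.45 and 7.71 on aged arrays. The groups were apart (0.83, SE 0.14, limma adjusted p = 0.0273), and the call held in 1 of the 7 fits without 1 array. The 14 macrophage markers averaged 7.27 to 7.48 on young and 7.46 to 7.68 on aged arrays, with 0 called and a median change of 0.19 (0.15 to 0.23 leaving out 1 array). Cd68 and Ms4a7 did not overlap between the groups and changed by 0.48 and 0.47 (limma adjusted p = 0.19 and 0.195). Whether macrophage content had a part in the Ccl8 and Cd209d values was not tested. Of 11 T lymphocyte markers 0 were called, and their median was 0.13. In the B lymphocyte and plasma cell list, Jchain, the joining chain of secreted antibodies, read 4.21, 4.44 and 3.88 on young and 6.11, 4.91, 4.95 and 7.17 on aged arrays, and Ighm changed by 0.83. Neither was called (limma adjusted p = 0.585 and 0.449), and the B cell gene Cd79a changed by -0.14.

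Antigen presentation (19 genes), interferon response (27) and complement (27) had 0 called, with medians of -0.01, -0.03 and 0.09. The interferon-induced genes Ifit3 and Ifit2 changed by 0.67 and 0.49, but Rsad2 and Ifi44 by -0.46 and -0.42. Complement C7, a part of the membrane attack complex, read 10.27, 10.19 and 10.33 on young and 9.68, 9.75, 9.34 and 9.81 on aged arrays, just outside the threshold (-0.62, limma adjusted p = 0.0587). Of 21 acute phase genes 1 fell, against 0.0565% of all genes. Lrg1 (Entrez 76905), a secreted leucine-rich glycoprotein, read 8.68, 8.56 and 8.52 on young and 7.70, 8.18, 7.72 and 7.97 on aged arrays. Aged replicate 2 was the nearest to the young arrays (-0.69, SE 0.13, limma adjusted p = 0.0496), and the call held in 1 of the 7 fits without 1 array. The orosomucoid genes Orm3 and Orm1 changed by -0.88 and -0.48 without overlap (limma adjusted p = 0.168 and 0.442).

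Cish fell and Igfbp2 rose, each the 1 called gene of its list. Cish (Entrez 12700), a feedback inhibitor of STAT5 signalling that is induced by growth hormone and cytokines, read 7.63, 7.75 and 7.20 on young and 5.68, 5.94, 5.20 and 6.46 on aged arrays. The aged arrays were spread widely but stayed below the young ones (-1.71, SE 0.30, limma adjusted p = 0.0441), and the call held in 2 of the 7 fits without 1 array. No other of the 32 genes of the SOCS family and JAK-STAT signalling was called: Pim1 changed by -0.53, the growth hormone receptor gene Ghr by -0.39 and Bcl6 by 0.37. Of the 32 genes, 8 were lower and 1 higher without overlap (10.9% of all genes did not overlap). Igfbp2 (Entrez 16008), a binding protein for insulin-like growth factors, read 6.19, 6.05 and 6.16 on young and 7.57, 7.29, 7.91 and 7.79 on aged arrays. The young arrays lay close together, and all aged arrays were well above the highest of them (1.50, SE 0.19, limma adjusted p = 0.00554). Of 19 genes of the insulin-like growth factor axis it alone was called, while Igf1, the ligand, read 8.77, 8.86 and 8.78 on young and 8.35, 8.41, 8.34 and 8.26 on aged arrays (-0.46, limma adjusted p = 0.0762). The insulin receptor substrate Irs1 changed by -0.50 and Igfals, the carrier subunit of circulating growth factor, by -0.45 (limma adjusted p = 0.223 and 0.235). The PI3-kinase inhibitor gene Pik3ip1 rose by 0.40 (limma adjusted p = 0.0291).

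Several genes best known from neurons rose, a grouping made after their values were seen. The deposited synapse term took in 1 of the 37 annotated higher genes, against 1.34% of annotated genes. Sema3e (Entrez 20349), a guidance cue for axons and vessels, read 5.39, 5.04 and 5.02 on young and 6.57, 6.07, 6.52 and 6.39 on aged arrays. All aged arrays were higher (1.23, SE 0.15, limma adjusted p = 0.00477). Cdh9 (Entrez 12565), a classical cadherin of synapses, read 4.49, 4.14 and 4.18 on young and 5.28, 5.82, 5.58 and 5.68 on aged arrays, and it alone of 23 cadherins was called (1.32, SE 0.19, limma adjusted p = 0.0119). The endothelial cadherin Cdh5 changed by -0.37 (limma adjusted p = 0.37). Nfasc (Entrez 269116), neurofascin, an adhesion protein of nodes of Ranvier, read 4.61, 4.77 and 5.04 on young and 6.06, 5.66, 5.64 and 6.17 on aged arrays. It was the 1 called gene of 37 neuronal adhesion proteins (1.08, SE 0.15, limma adjusted p = 0.0106). The list median was -0.03.

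Dpp10 (Entrez 269109), an auxiliary subunit of Kv4 potassium channels, read 3.59, 3.45 and 3.27 on young and 5.05, 4.29, 4.89 and 4.75 on aged arrays (1.31, SE 0.18, limma adjusted p = 0.00685). Kcnip3, a calcium-binding protein that joins the same channels, rose by 0.40 (limma adjusted p = 0.0325). Cacna2d3 (Entrez 12294), an auxiliary subunit of calcium channels, read 4.95, 4.90 and 4.67 on young and 6.28, 5.64, 5.91 and 6.24 on aged arrays. All aged arrays were higher (1.18, SE 0.21, limma adjusted p = 0.0496), and the call held in 1 of the 7 fits without 1 array. It alone of 26 calcium channel genes was called, while the pore subunits Cacna1d and Cacna1h changed by 0.50 and 0.28 and the skeletal muscle pore subunit Cacna1s by -0.77. Sncg (Entrez 20618), gamma-synuclein, which is also found in fat, read 7.99, 7.91 and 7.70 on young and 8.77, 8.57, 9.32 and 8.94 on aged arrays. Aged replicate 3 was the highest (1.03, SE 0.16, limma adjusted p = 0.0199). This call held in 3 of the 7 fits without 1 array.

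Trnp1 (Entrez 69539), a nuclear protein of neural progenitors, read 7.30, 7.02 and 7.21 on young and 8.41, 7.86, 8.0 and 8.10 on aged arrays, without overlap (0.92, SE 0.12, limma adjusted p = 0.00685). Smaller increases were called for the axonal kinesin Kif1a (0.81), the synaptic vesicle transporter Slc6a17 (0.79), neuroserpin (Serpini1, 0.78), the glutamate receptor partner Neto1 (0.77), the mechanically gated channel Piezo2 (0.70), the regulator Rgs7bp (0.56) and the adhesion gene Sdk2 (0.52). Of the 7 fits without 1 array, the call held in 7 for Slc6a17 and Serpini1 and in 5 for Sdk2. It held in 2 for Kif1a, Piezo2 and Rgs7bp and in 1 for Neto1. Slc4a10, a sodium and bicarbonate transporter, fell by 0.49 on the log2 scale (limma adjusted p = 0.0321). The 17 Schwann cell and neuronal markers averaged 5.53 to 6.04 on young and 5.42 to 5.71 on aged arrays, with 0 called and a median of -0.09. Within that list S100b, a glial and fat cell gene, read 7.34, 6.93 and 7.18 on young and 7.80, 8.12, 8.15 and 7.87 on aged arrays (0.84, limma adjusted p = 0.056). Uchl1 changed by 0.60 (limma adjusted p = 0.12). The noradrenaline enzyme gene Dbh went the other way, at 6.45, 6.61 and 4.48 on young and 3.97, 4.12, 3.92 and 3.83 on aged arrays (-1.89, limma adjusted p = 0.407), and was high on young replicates 1 and 2, the same arrays as the muscle markers.

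Among the remaining genes, Ube2ql1 (Entrez 76980), which resembles ubiquitin-conjugating enzymes, had the largest change of the 50. It read 6.12, 5.69 and 5.76 on young and 7.48, 8.25, 7.58 and 7.18 on aged arrays. Aged replicate 2 was the highest, and the groups were apart (1.76, SE 0.20, limma adjusted p = 0.00359). Capn13 (Entrez 381122), a calpain protease, read 3.55, 3.43 and 3.43 on young and 4.59, 4.32, 4.61 and 4.41 on aged arrays. It was the 1 called gene of 16 in the calpain list (1.02, SE 0.09, limma adjusted p = 0.000787), and Capn6 and Capn10 changed by -0.13 and -0.15. Apod (Entrez 11815), apolipoprotein D, a lipocalin that carries small lipids, read 8.49, 8.66 and 8.11 on young and 9.55, 9.30, 9.49 and 9.32 on aged arrays. It alone was called of 21 apolipoproteins and lipocalins (1.0, SE 0.12, limma adjusted p = 0.00553), and the related lipocalin Ptgds changed by 0.74 without overlap (limma adjusted p = 0.293).

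Serinc2 (Entrez 230779), a membrane protein of the serine incorporator family, read 5.79, 5.86 and 5.69 on young and 6.89, 6.54, 6.50 and 6.75 on aged arrays (0.89, SE 0.11, limma adjusted p = 0.00554). Also higher were the aldehyde oxidase Aox3 (0.72), the exchange factor Arhgef26 (0.68), death receptor 6 (Tnfrsf21, 0.54), the lipid phosphodiesterase Smpdl3b (0.48) and Fam217a (0.48). Pisd-ps1, a pseudogene, rose by 0.76 and Trappc2, a subunit of a vesicle tethering complex, by 0.49, and both may share signal with near-identical copies elsewhere in the genome. Bace2, a protease related to beta-secretase, fell by 0.55 on the log2 scale (limma adjusted p = 0.0496).

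Of 23 circadian clock genes 0 were called and 12 did not overlap between the groups, against 10.9% of all genes without overlap. The clock is a feedback loop in which the activators Arntl, Clock and Npas2 drive their own repressors and output genes, so that both sets peak at opposite times of day. Arntl read 7.78, 7.48 and 6.21 on young and 6.20, 5.56, 6.11 and 5.89 on aged arrays (-1.21, limma adjusted p = 0.269). Npas2 read 8.66, 8.37 and 7.37 on young and 7.32, 6.31, 6.67 and 7.37 on aged arrays (-1.22, limma adjusted p = 0.468). Both were high on young replicates 1 and 2, with young replicate 3 next to the aged arrays. The repressor gene Bhlhe41 was higher on all aged arrays: it read 6.88, 6.93 and 7.42 on young and 7.72, 8.10, 8.09 and 8.36 on aged arrays (0.99, limma adjusted p = 0.215). Dbp changed by 0.69, Nr1d2 by 0.59, Hlf by 0.55 and Tef by 0.46, each without overlap, and Nfil3, which opposes Dbp, by -0.89. Dbp, Nr1d2, Hlf, Tef and Nfil3 were chosen for mention after their values were seen. In 19 of the 23 genes young replicate 3 was nearer to the aged mean than the mean of young replicates 1 and 2, against 46.4% of all genes. The same split of the young arrays was seen in the muscle markers, and the sources used here do not give the hour of tissue collection. The part of either in these values was not tested.

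**Figure D3:**
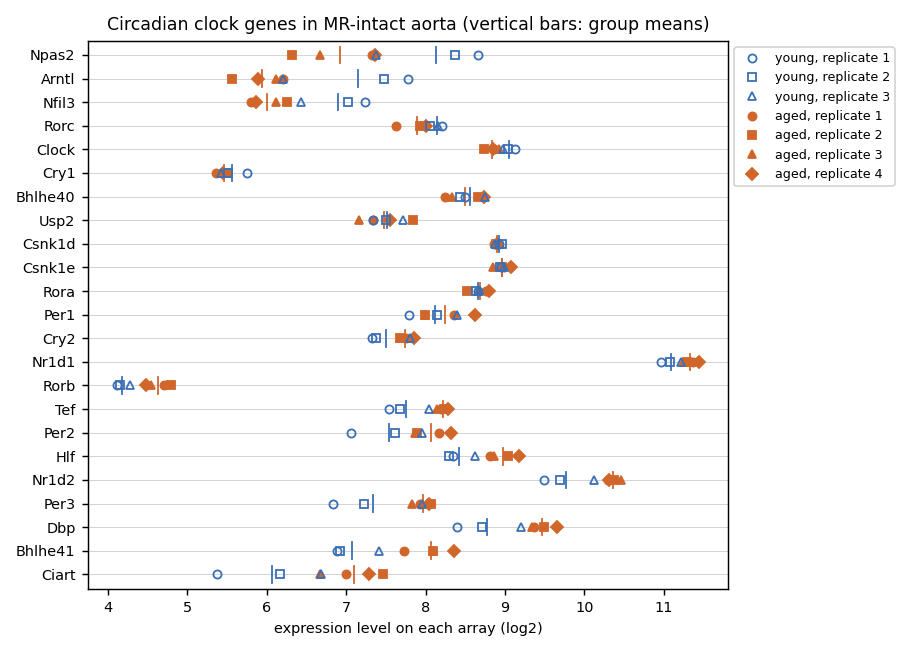
Log2 expression level of the 23 circadian clock genes on each of the 7 MR-intact arrays, ordered by change with age, with open blue symbols for young and filled orange symbols for aged arrays and vertical bars for group means. Young replicates 1 and 2 lie farthest from the aged arrays at both ends of the list (Arntl at 7.78 and 7.48, Ciart at 5.37 and 6.17), with young replicate 3 nearer to them.

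Of 24 imprinted genes, which are expressed from 1 parental allele, 0 were called and 9 did not overlap, against 10.9% of all genes. H19, a growth-restraining noncoding RNA, read 7.06, 6.86 and 5.34 on young and 5.05, 5.11, 4.87 and 5.33 on aged arrays (-1.33, limma adjusted p = 0.312). Young replicate 3 lay beside the aged arrays here too. Meg3 changed by -0.69 and Zim1 by -0.44, whereas Nnat read 7.80, 7.31 and 6.58 on young and 8.46, 7.88, 8.74 and 8.41 on aged arrays (1.15, limma adjusted p = 0.15). Senescence genes and p53 targets (24) had 0 called and a median of 0.00. Cdkn1a, the cell cycle inhibitor p21, read 9.64, 9.48 and 8.93 on young and 8.32, 8.02, 8.17 and 8.45 on aged arrays (-1.11, limma adjusted p = 0.0908). Cell cycle genes (43) had a median of 0.08 with 0 called, and Top2a and Mki67 changed by 0.36 and 0.24.

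Oxidant and antioxidant enzymes (34) and genes of the renin-angiotensin, endothelin and other vasoactive systems (42) held 0 calls as well, with medians of 0.00 and -0.05. Nox4, the smooth muscle NADPH oxidase, changed by 0.46, Nqo1 by 0.57, Gpx3 by -0.49 and the endothelial nitric oxide synthase gene Nos3 by -0.32, each without overlap (limma adjusted p = 0.383 to 0.471). The vasopressin receptor gene Avpr1a read 5.49, 5.42 and 5.80 on young and 4.79, 5.23, 4.66 and 4.87 on aged arrays (-0.69, limma adjusted p = 0.139).

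Marker lists gave the levels of cell types that the dissected tissue could hold. No marker of the 15 lists was called. The skeletal muscle list had a median of -1.59 and the cardiac list -1.32, and leaving out 1 array moved these to between -2.48 and -1.11 and between -2.07 and -0.94. Their defining genes were high on young replicates 1 and 2: Actc1 read 11.43, 11.15 and 7.91 on young and 7.67, 7.41, 7.46 and 7.14 on aged arrays, and Acta1 read 10.35, 9.41 and 6.79 on young and 6.34, 6.35, 6.52 and 7.85 on aged arrays. Endothelial markers had a median of -0.28 (-0.35 to -0.21 leaving out 1 array). Their mean was 8.22 to 8.49 on young and 8.04 to 8.16 on aged arrays, without overlap, and Kdr, the main receptor for vascular endothelial growth factor, changed by -0.77 (limma adjusted p = 0.267). Fibroblast markers, from the cells that make most adventitial collagen, had a median of -0.13, with means of 9.75 to 9.79 on young and 9.55 to 9.70 on aged arrays. These means did not overlap. Of the 12 markers, 6 were lower and 0 higher without overlap (10.9% of all genes did not overlap). The fibroblast genes Clec3b, Entpd2 and Pi16 changed by -0.39, -0.32 and -0.31 (limma adjusted p = 0.116, 0.0969 and 0.684). The part of fibroblast content in the collagen values was not tested.

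Smooth muscle markers had a median of 0.12, and their means overlapped between young (10.36 to 10.41) and aged arrays (10.21 to 10.59). Des was their 1 member without overlap (-0.62, limma adjusted p = 0.12). White adipocyte markers averaged 11.23 to 11.30 on young and 10.97 to 11.30 on aged arrays, with a median of -0.07. Cfd and Retn, which are secreted by fat cells, changed by -1.12 and -1.02 (limma adjusted p = 0.318 and 0.336). Brown adipocyte markers had a median of -0.04, mesothelial markers -0.38, liver markers -0.06, erythroid markers -0.12 (5 of 10 measured) and chondrocyte markers 0.01. Acan and Hapln1 are in the chondrocyte list, of which Col2a1 and Sox9 were near 0 in change.

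**Figure D4:**
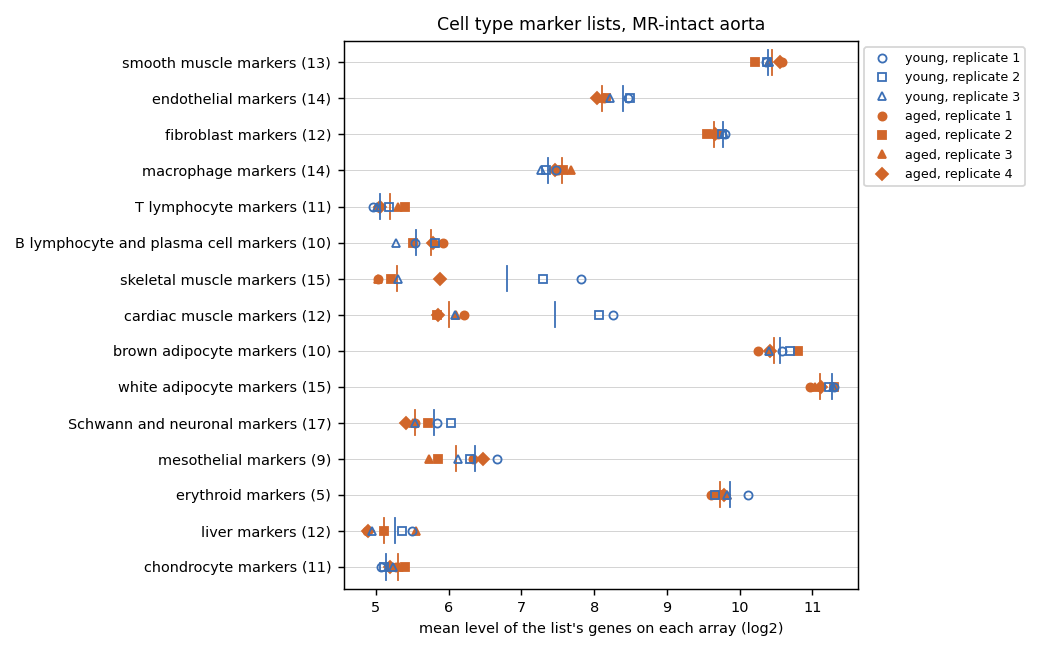
Mean log2 level of each of the 15 cell type marker lists on the 7 MR-intact arrays, with the number of measured genes in brackets, open blue symbols for young and filled orange symbols for aged arrays and vertical bars for group means. Young replicates 1 and 2 stand apart in the skeletal and cardiac muscle lists, where young replicate 3 lies with the aged arrays.

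The same genes were set beside aging in knockout aorta (3 young and 3 aged arrays), a comparison that shares no array with the one above but shares its estimate of the spread. Limma called 156 genes there (0.735%). Of the 50 genes called in MR-intact aorta, 47 had the same sign in knockout aorta, as had 55.9% of all genes, and 14 were called in both, 28% of the MR-intact and 8.97% of the knockout calls. Of the lower genes, 8 of 12 were called in knockout aorta and 8 had a larger change there, with a median of -0.82. Col1a1 changed by -1.15, Col1a2 by -0.97, Col3a1 by -0.80, Adamts2 by -0.86, Lox by -0.96, Fbln1 by -0.83, Bace2 by -0.93 and Slc4a10 by -0.60. The difference between genotypes (knockout minus MR-intact change) was -0.07 for Col1a1 (95% interval -0.37 to 0.23) and -0.03 for Col3a1 (-0.28 to 0.22). It was -0.26 (-0.56 to 0.03) for Col1a2 and -0.27 (-0.65 to 0.12) for Lox. For Adamts2 it was -0.27 (-0.50 to -0.04), for Fbln1 -0.31 (-0.59 to -0.03) and for Bace2 -0.39 (-0.70 to -0.07). These intervals are not adjusted for the number of genes, and over the 11 named lower genes 4 excluded 0 and 7 held it.

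Of the 38 higher genes, 6 were called in knockout aorta (Cdh9, Apod, Vwc2, Mmp3, Serinc2 and Pisd-ps1), 37 had a smaller change and the median was 0.25. Igfbp2 changed by 0.34 in knockout aorta (difference -1.16, 95% interval -1.77 to -0.56), Tnfrsf11b by 0.15 (-0.73, -1.10 to -0.36), Ibsp by 0.53 (-0.54, -0.91 to -0.17) and Capn13 by 0.35 (-0.66, -0.95 to -0.38). For other higher genes the interval held 0: the difference was -0.30 (-0.91 to 0.31) for Cdh9, -0.18 (-0.57 to 0.22) for Apod and -0.18 (-0.65 to 0.29) for Vwc2. It was -0.15 (-0.64 to 0.33) for Mmp3, -0.13 (-0.49 to 0.23) for Serinc2 and -0.13 (-0.56 to 0.30) for Cd209d. Over the 38 higher genes 27 intervals excluded 0 and 11 held it. The uncalled cartilage genes Acan and Hapln1 changed by -0.31 and -0.22 there. Cish, among the lower genes, changed by -0.21 (difference 1.50, 95% interval 0.54 to 2.46). No gene passed the limma test of the difference over all genes (0 called, 0%), and 1723 genes (8.118%) had an unadjusted p under 0.05, 32 of the 50 among them. The 50 were chosen on the MR-intact arrays that enter this difference. The counts of smaller or larger changes, of intervals and of unadjusted p-values are therefore not independent of the choice.

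Among the 49 named genes, Ube2ql1 had the widest gap between genotypes. It read 5.99, 5.79 and 5.88 on young and 5.16, 5.56 and 5.32 on aged knockout arrays, so that every aged knockout array lay below every young one, opposite to MR-intact aorta. This fall was not called (-0.54, limma adjusted p = 0.243), and 16.4% of all genes did not overlap between the knockout groups. The difference of the changes was -2.30 (95% interval -2.94 to -1.66), with a limma unadjusted p = 3.97e-06 and adjusted p = 0.0843. It was called in 3 of the 13 fits without 1 array (limma adjusted p = 0.0276 without aged MR-intact replicate 4, 0.00821 without aged MR-intact replicate 2 and 0.039 without aged knockout replicate 3).

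**Figure D5:**
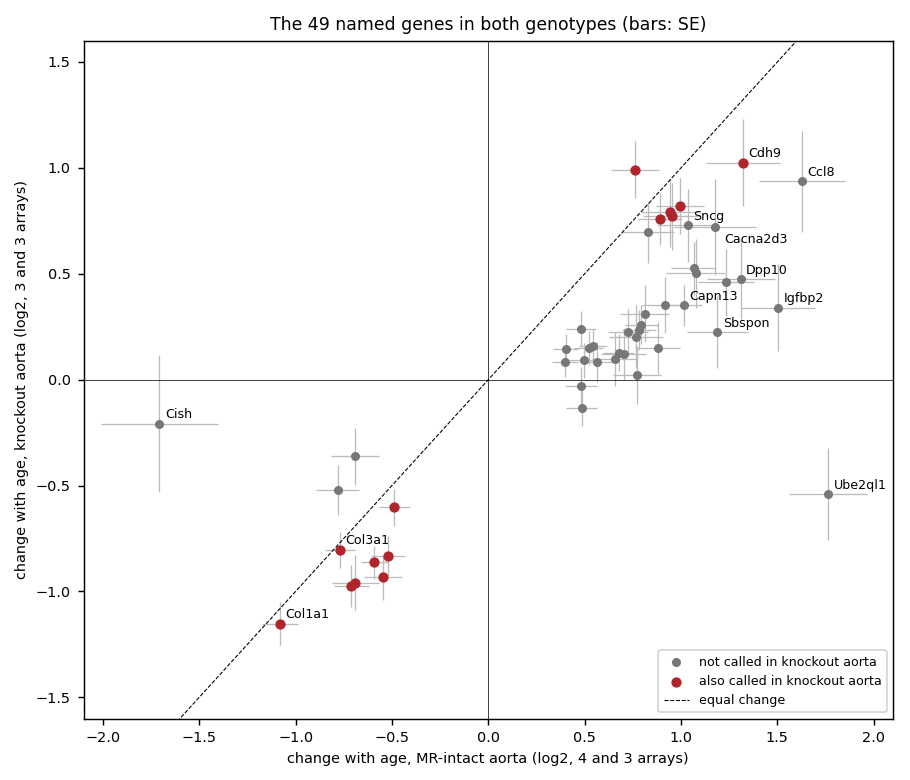
Change with age in MR-intact aorta (horizontal axis, log2) against the change in knockout aorta (vertical axis, log2) for the 49 named genes, with SE bars. Red points are also called in knockout aorta and the dashed line marks equal change. Lower genes such as Col1a1 lie near the line, higher genes lie mostly below it, and Ube2ql1 lies at 1.76 and -0.54. The genes were chosen on the horizontal change, so their place relative to the line is not independent of the choice.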

How the data were processed

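Biotin-labelled total RNA of aorta was measured on arrays. Log2 expression values were deposited for each gene on each array, at full precision and once more rounded to 2 decimals. RMA, affy and limma are named in the submitters' processing notes, with no version. The sources used here name neither array platform nor genome build. In the file's columns, several arrays' log2 values stand under numeric headers and were recorded as a score for that reason only. The deposited table also holds, per the file headers, the authors' own signed fold change (a score) and unadjusted p-value. In the authors' deposited table all 50 called genes had a p-value under 0.05, as had 11.62% of genes. Those p-values are unadjusted and come from the same series, so this is no independent support. On the log2 scale, the authors' changes differed from the differences of group means by a median of 0.0028 and at most 1.58.

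Values were used without further scaling or filtering. limma 3.58.1 in R 4.3.3 fitted 1 coefficient for each of the 4 groups on 13 arrays (lmFit, eBayes, two-sided, residual degrees of freedom 9, prior 3.41). Names came from RefSeq GRCm38.p6 for 20768 of 21225 genes, and 457 kept the deposited name. All called genes but 1 of the 12 lower ones are named (the rule leaves out predicted, clone, olfactory and vomeronasal receptor and small RNA names, of which 0 were called), with up to 4 uncalled members of each list by size of change. Cd79a, Clock, Col11a2, Col2a1, Col6a3, Dbp, Hlf, Mgp, Mki67, Nfil3, Nr1d2, Runx2, Sox9, Sp7, Tef and Uchl1 fall outside this rule and were chosen after their values were seen. That lower gene and 1 list member under the rule are left out here. Members and lists (25 pathway and 15 marker lists, 807 of 822 entries matched) were chosen with earlier results of these data known, so they carry no set test. The alternatives were other arrays in the fit, array weights, prior, scaling, a filter on dim genes, rounded values, a muscle covariate, a replicate block and leaving out arrays. The script was checked on simulated data. No array was a copy of another, and the number of arrays limits the precision.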

Additional observations from a re-analysis of the deposited data

Results flagged for a closer look

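The Ube2ql1 change with age differed between genotypes by -2.30 (knockout minus MR-intact), since all aged arrays were above the young ones in MR-intact aorta and all below them in knockout aorta. The limma test of this difference missed the threshold over all genes (adjusted p = 0.0843). The fall in knockout aorta alone was not called (-0.54, limma adjusted p = 0.243). For 89 measures (49 named genes and 40 list means) the 4 aged arrays were searched for 1 array far from the rest, which chance gives in about 1 of 20 groups, and 2 were found. Aox3 read 4.97 on aged replicate 3 and 5.13 to 5.14 on the others. Fam217a read 4.65 on aged replicate 4 and 4.53 to 4.54 on the others.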

How the results depend on the processing

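All 50 called genes kept their sign under every alternative that tested them (44 under the filter on dim genes). In the fits that only left out arrays no sign could turn, since none of the 50 overlapped between the groups. The count of called genes (higher, lower) stayed within 1.5 times of 50 with 7 MR-intact arrays alone (47, 32 of them shared), another prior (54), centring (47), a second quantile normalization (46), the filter on dim genes (54) and rounded values (49). It was 93 (63 and 30) without the aged knockout group, 489 (276 and 213) with array weights, 6 (4 and 2) with the muscle covariate, and 1 (0 and 1) with the replicate block. The block fit used 7 arrays and leaves few residual degrees of freedom. Aged replicate 4, alone in its block, adds nothing to the change there, so the count cannot tell a pairing from this loss. With the 7 MR-intact arrays alone and no block, 18 of the 49 named genes lost the call, among them Ccl8, Mmp3, Sncg and Vwc2. Leaving out 1 array gave 14 to 104 genes, 10 to 56 higher and 4 to 70 lower. Same-numbered arrays did not deviate together (correlations of -0.07, 0.04 and 0.08). Such a check cannot exclude a pairing that touches only some genes. Leaving out young replicates 1 and 2 together, chosen after seeing the data, left 1 young array, assumed to vary like the other groups, and gave 2 genes (1 and 1). The difference between genotypes gave 1 gene with array weights and 0 to 16 genes leaving out 1 array, 16 without aged knockout replicate 3. The causes were not tested. Medians of lists within 0.02 of 0 turned sign with scaling or filter in 6 lists. How far the dimmest genes stand above background is not known.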
